A study of Mus musculus with 6 samples.

Results

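The 44 genes described here encode proteins that act in G2 and mitosis: the mitotic cyclins and their kinase, the checkpoint and spindle kinases, kinetochore and centromere proteins, spindle motors, and proteins of chromosome separation and cytokinesis. They were chosen by symbol, with earlier results of these data known, and all 44 had a row among the 24421 gene symbols of the table. RNA sequencing had been done on 6 neurofibromas (benign nerve sheath tumours) of mice on a C57BL/6J background. In the miR155KO_Nf1KO group were 3 tumours (MiRNC149, MiRNC640 and MiRNC670), taken from Nf1fl/fl; DhhCre mice that also carried a Mir-155 knockout. In the Nf1KO group were 3 (Nf803, Nf809 and Nf827), from Nf1fl/fl; DhhCre mice without it. In both groups Cre driven by Dhh, which is active in Schwann cell precursors, removes the floxed gene Nf1, whose product restrains Ras, so that cells outside that lineage keep it. No drug was given, the labels used here state no ages, and animals were kept to a time point or a tumour size limit, without a value for each tumour. The study asked which genes differ between the groups, as possible targets of miR-155, a microRNA best known from activated immune cells.

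Cells entering mitosis raise cyclin A2 and cyclin B levels, which activate the kinase Cdk1. Many genes of this phase are switched on late in the cycle by the MuvB complex with B-Myb and FoxM1, which binds a short promoter element called the cell cycle genes homology region (CHR), often with NF-Y bound to CCAAT boxes nearby. The same element carries the repressive DREAM complex in resting cells. In a bulk tumour sample their transcripts come mostly from dividing cells, whichever type these are, but genes such as Anln also act outside division. The anaphase-promoting complex removes several of the proteins as mitosis ends.

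Column totals ran from 13061129 to 16333181 reads, so the 44 genes together rested on 3426 to 3775 reads per tumour in miR155KO_Nf1KO and 6190 to 9559 in Nf1KO. The host gene of miR-155, Mir155hg, had 5, 3 and 1 reads in miR155KO_Nf1KO tumours, against 57, 66 and 71 in Nf1KO tumours. Nf1 averaged 341 ± 43.3 CPM in miR155KO_Nf1KO and 324 ± 33.2 CPM in Nf1KO (SD, n = 3 each), and counts over the whole gene do not read the floxed part apart from the rest. All 10 Schwann cell markers were detected, with a summed level of 3464 to 3727 CPM in miR155KO_Nf1KO and 2331 to 2524 CPM in Nf1KO. CPM stands for reads in every 1e+06 of the scaled library. Skeletal muscle transcripts set apart tumours MiRNC670 and Nf809, whose 8 muscle markers summed to 2360.1 and 2801 CPM, against 199 and 424 CPM in the other miR155KO_Nf1KO tumours and 69.2 and 7.23 CPM in the other Nf1KO tumours. Adipocyte transcripts set apart MiRNC640, whose 7 markers summed to 2150.1 CPM, against 101 and 611 CPM in the other miR155KO_Nf1KO tumours and 341, 43.3 and 287 CPM in Nf1KO tumours. Whether each tumour came from its own mouse is not stated, so the p-values reflect only how these 6 samples varied, which may be partly technical.

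Mitosis genes were lower in miR155KO_Nf1KO as a group. Their summed level was 231, 231 and 299 CPM in MiRNC149, MiRNC640 and MiRNC670, against 449, 591 and 537 CPM in Nf803, Nf809 and Nf827. Every miR155KO_Nf1KO tumour lay below every Nf1KO tumour, and the mean sum was 254 ± 39.2 CPM in miR155KO_Nf1KO and 526 ± 71.5 CPM in Nf1KO (SD, n = 3 each), a ratio of 0.483. Mki67, the most highly counted member, did not carry this alone, since the ratio of the sums without it was 0.525. In bulk RNA, fewer cells in mitosis and less of these transcripts per cell cannot be told apart.

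**Figure D1:**
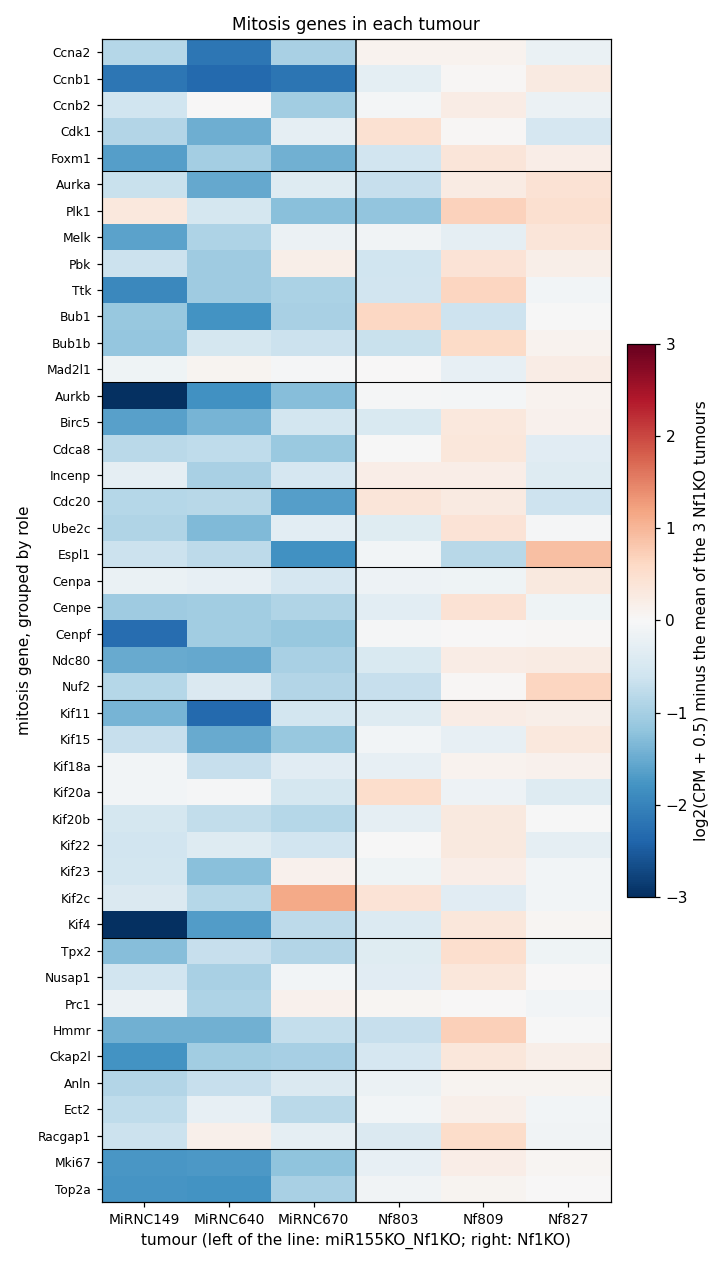
Level of the 44 mitosis genes in each tumour, as log2(CPM + 0.5) minus the mean of the 3 Nf1KO tumours, with rows grouped by role, miR155KO_Nf1KO tumours left of the vertical line and Nf1KO tumours right of it. Most rows are blue (lower) in all 3 miR155KO_Nf1KO tumours, Mad2l1 is near 0 throughout, and Kif2c is highest in MiRNC670.

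Of the 44 genes, 43 had enough reads to be tested. All 43 had a negative log2 fold change (miR155KO_Nf1KO over Nf1KO), where 49.5% of all 15604 tested genes had one, and the median was -1.08, where the median of all tested genes was 0.01. The edgeR quasi-likelihood test, adjusted by Benjamini-Hochberg over all tested genes, called 6 members lower at an adjusted p under 0.05 and 0 higher. In the same test 4.74% of all genes were called lower and 5.22% higher. At an unadjusted p under 0.05, 24 of the 43 were lower, against 13.2% of all genes, and 0 were higher. DESeq2 called 19 of the 43 lower, against 9.47% of all genes, and 0 higher. In 25 of the 43, the 3 miR155KO_Nf1KO tumours all lay below the 3 Nf1KO tumours, which 16.3% of all genes did. A fitted decrease of at least 2-fold was found for 25 of the 43 and for 8.44% of all genes.

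The low-count filter bears on these counts. In 37 of the 43 tested members all 6 tumours reached the filter's bound of 0.674 CPM. The other 6 (Cdk1, Melk, Ttk, Aurkb, Cdc20 and Kif4) reached it in all 3 Nf1KO tumours but in only 1 or 2 miR155KO_Nf1KO tumours. They passed with the help of the group where they were higher, so their direction cannot be read apart from the filter. None of them is among the genes edgeR called with all tumours, but all have a fitted decrease of at least 2-fold. Without the filter 43 of 44 members had a negative log2 fold change. The number edgeR called lower in that fit stayed at 6, against 3.74% of all genes. That fit still includes the genes just named, so it cannot show the counts without them. The DESeq2, range and 2-fold counts were not redone without the filter. Kif2c, a kinesin that takes tubulin off microtubule ends, was the member left untested. It had 4, 1 and 22 reads in miR155KO_Nf1KO tumours, against 12, 5 and 7 reads in Nf1KO tumours, so that the groups overlapped. Its mean was the higher in miR155KO_Nf1KO, at 0.689 CPM against 0.55 CPM in Nf1KO.

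**Figure D2:**
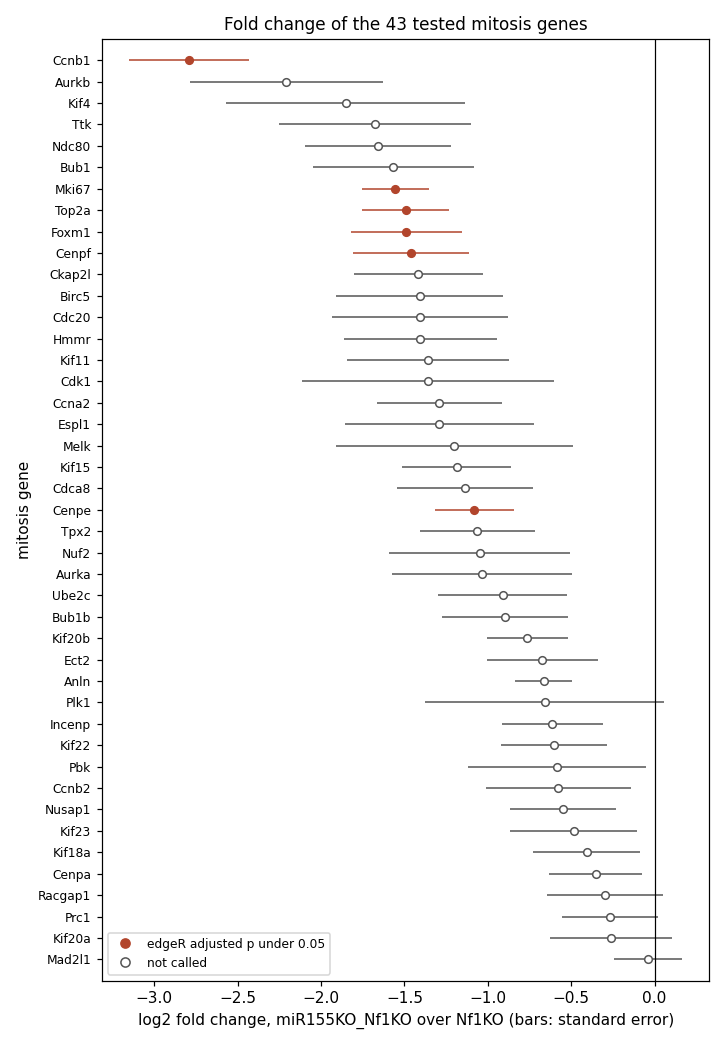
Log2 fold change of the 43 tested mitosis genes, miR155KO_Nf1KO over Nf1KO, with its standard error as a bar. Filled points mark the 6 genes called by edgeR at an adjusted p under 0.05; the estimates run from -2.79 for Ccnb1 to -0.04 for Mad2l1.

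The 2 members of chromosome structure both fell. Mki67 (chromosome 7, 135689784 to 135716361, minus strand, GRCm38) encodes Ki-67, a protein that coats mitotic chromosomes and is the usual tissue marker of cycling cells. It had 35.3, 35.9 and 51.3 CPM in miR155KO_Nf1KO tumours, against 99.7, 137 and 123 CPM in Nf1KO tumours. No tumour of one group came near the other group, and the log2 fold change was -1.56 (SE 0.20), adjusted p = 0.0194 by edgeR with Benjamini-Hochberg adjustment. Top2a (chromosome 11, 98992943 to 99024189, minus strand) encodes topoisomerase II alpha, which untangles sister chromatids. Its level was 12, 11.8 and 21.5 CPM in miR155KO_Nf1KO tumours, against 39.6, 44.6 and 42.8 CPM in Nf1KO tumours, with MiRNC670 higher than the other miR155KO_Nf1KO tumours but still clear of Nf1KO. The log2 fold change was -1.49 (SE 0.26), adjusted p = 0.0251 by the edgeR test. Per kilobase of exon Mki67 had the highest level of all 44 genes, 4.06 in miR155KO_Nf1KO and 11.9 in Nf1KO (CPM per kilobase), and Top2a had 1.67 in miR155KO_Nf1KO and 4.7 in Nf1KO.

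Among the cyclins, Cdk1 and FoxM1, cyclin B1 moved furthest. Ccnb1 (chromosome 13, 100778650 to 100786570, minus strand) encodes the cyclin that takes Cdk1 through entry into mitosis. It had 14, 11 and 11 reads in miR155KO_Nf1KO tumours, against 63, 96 and 105 in Nf1KO tumours, which is 0.901, 0.743 and 0.871 CPM in miR155KO_Nf1KO tumours, against 4.57, 5.93 and 7.03 CPM in Nf1KO tumours. The groups were far apart and its log2 fold change was -2.79 (SE 0.36), adjusted p = 0.0194 by edgeR, a 6.92-fold decrease. Ccnb1 has 4 processed pseudogenes in the annotation that match at least 1272 bases of its transcript at 94.4% to 99.2% identity. How reads with several matching places were counted is unknown here, so its level is uncertain. Foxm1 (chromosome 6, 128362967 to 128376146, plus strand), which encodes the transcription factor that drives much of this program, had 4.06, 6.55 and 4.83 CPM in miR155KO_Nf1KO tumours, against 9.15, 18.1 and 16.1 CPM in Nf1KO tumours. The lowest Nf1KO tumour, Nf803, stood above the highest miR155KO_Nf1KO tumour, MiRNC640, and the log2 fold change was -1.49 (SE 0.33), adjusted p = 0.0371 by edgeR.

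The related cyclins and the kinase did not pass. Ccna2, encoding cyclin A2 of S phase and G2, had 8.5, 3.11 and 7.76 CPM in miR155KO_Nf1KO tumours, against 16.8, 17 and 13.6 CPM in Nf1KO tumours. These groups did not overlap either, at a log2 fold change of -1.29 (SE 0.37), adjusted p = 0.0726 by edgeR (DESeq2 adjusted p = 0.00835). Ccnb2, encoding cyclin B2, had 2, 3.31 and 1.35 CPM in miR155KO_Nf1KO tumours, against 3.12, 3.96 and 2.88 CPM in Nf1KO tumours. For cyclin B2 the groups overlapped through MiRNC640, and its log2 fold change was -0.58 (SE 0.43), adjusted p = 0.452 by edgeR. The kinase gene Cdk1 was barely counted, with 7, 2 and 12 reads in miR155KO_Nf1KO tumours and 26, 21 and 11 in Nf1KO tumours, and its log2 fold change of -1.36 (SE 0.76) was not called. Ccnb1 thus stood lower relative to Ccnb2 in miR155KO_Nf1KO: the ratio of their CPM was 0.452, 0.224 and 0.647 in miR155KO_Nf1KO tumours, against 1.47, 1.5 and 2.44 in Nf1KO tumours. The difference of the log2 ratios was -2.12, with a two-sided exact permutation p of 0.1, the smallest that 3 tumours against 3 allow. This pair was chosen after its values were seen, so that p cannot decide anything. The ratio also rests on the Ccnb1 count, which is uncertain as given above.

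Centromere and kinetochore genes held the other calls. Cenpe (chromosome 3, 135212537 to 135273611, plus strand) encodes CENP-E, the kinesin that carries chromosomes to the spindle equator. It had 9.27, 9.32 and 10.3 CPM in miR155KO_Nf1KO tumours, against 16, 27 and 18.1 CPM in Nf1KO tumours. The miR155KO_Nf1KO tumours were close together and all below Nf803, with a log2 fold change of -1.08 (SE 0.24), adjusted p = 0.0365 by edgeR. Cenpf (chromosome 1, 189640606 to 189688086, minus strand) encodes CENP-F, a large protein of the outer kinetochore. Its level was 3.48, 8.85 and 8.24 CPM in miR155KO_Nf1KO tumours, against 18.3, 18.9 and 19.4 CPM in Nf1KO tumours, so that Nf1KO tumours were almost alike and MiRNC149 was lowest by far. The log2 fold change was -1.46 (SE 0.35), adjusted p = 0.0418 by edgeR. Cenpa encodes the histone variant that marks centromeres, and it had the smallest difference of this group. It had 5.15, 5 and 4.12 CPM in miR155KO_Nf1KO tumours, against 5.37, 5.44 and 7.43 CPM in Nf1KO tumours, a log2 fold change of -0.35 (SE 0.28) that was not called although the groups did not overlap. Ndc80 and Nuf2, which encode partners in the microtubule-binding Ndc80 complex, differed by -1.66 (SE 0.44) and -1.05 (SE 0.54) on the log2 scale and were not called by edgeR (adjusted p = 0.0565 and 0.27), while DESeq2 called Ndc80 (adjusted p = 0.00666).

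**Figure D3:**
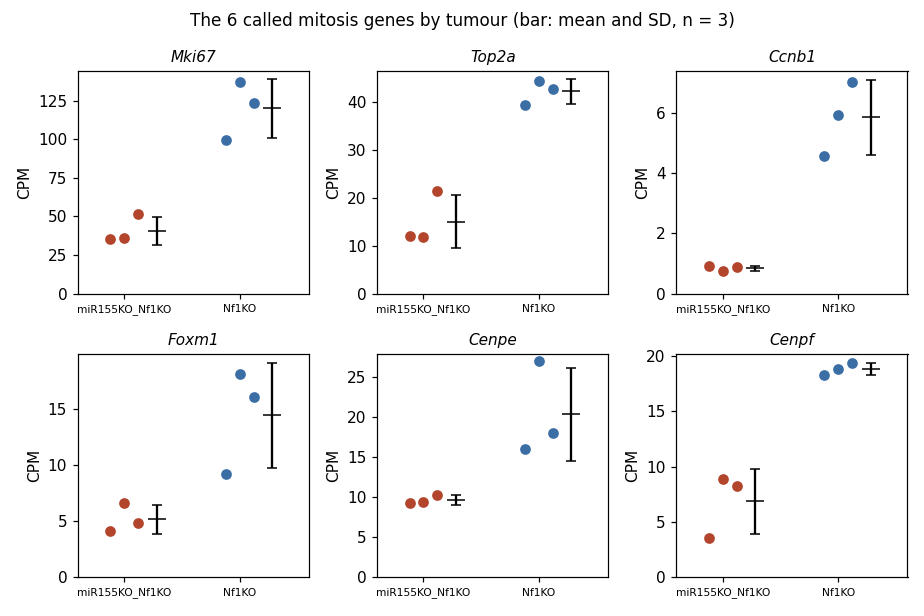
CPM of the 6 called mitosis genes in each tumour, with miR155KO_Nf1KO left and Nf1KO right in each panel, and the mean with its SD as a bar beside the 3 points. In none of the 6 genes do the groups overlap; the axes start at 0.

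The promoters of the called genes are printed because these genes moved together, so that the elements named above can be looked for in them. The windows run from 220 bases before to 30 bases after the start site, on GRCm38.p6 from RefSeq, 5′ to 3′ on the gene's strand. Capitals mark the CHR letters TTTGAA and TTCGAA and the NF-Y letters CCAAT, on either strand. On the opposite strand CCAAT appears as ATTGG. The first CHR form then appears as TTCAAA, whereas the second is its own reverse complement. Foxm1 is named only.
Mki67, chr7:135716350-135716599, minus strand: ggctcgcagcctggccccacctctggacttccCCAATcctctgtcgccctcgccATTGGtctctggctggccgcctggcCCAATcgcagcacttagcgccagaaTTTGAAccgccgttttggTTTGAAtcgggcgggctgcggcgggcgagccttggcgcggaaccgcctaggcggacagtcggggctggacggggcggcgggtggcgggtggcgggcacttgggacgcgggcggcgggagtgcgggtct
Top2a, chr11:99024160-99024409, minus strand: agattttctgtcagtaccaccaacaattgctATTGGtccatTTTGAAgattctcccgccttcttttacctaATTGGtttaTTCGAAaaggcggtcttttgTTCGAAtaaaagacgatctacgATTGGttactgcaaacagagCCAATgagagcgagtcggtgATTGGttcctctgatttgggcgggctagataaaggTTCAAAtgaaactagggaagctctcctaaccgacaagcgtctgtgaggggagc
Cenpf, chr1:189688057-189688306, minus strand: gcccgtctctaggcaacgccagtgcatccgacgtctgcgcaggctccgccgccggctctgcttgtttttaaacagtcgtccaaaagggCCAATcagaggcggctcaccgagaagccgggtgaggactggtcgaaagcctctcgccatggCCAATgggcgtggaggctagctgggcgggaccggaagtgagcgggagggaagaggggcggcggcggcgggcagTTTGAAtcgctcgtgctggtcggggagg
Cenpe, chr3:135212343-135212592, plus strand: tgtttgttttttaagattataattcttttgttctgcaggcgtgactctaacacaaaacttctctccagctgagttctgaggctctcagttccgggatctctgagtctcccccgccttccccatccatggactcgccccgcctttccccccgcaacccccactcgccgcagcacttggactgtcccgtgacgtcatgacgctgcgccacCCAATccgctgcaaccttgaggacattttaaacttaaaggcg
Ccnb1, chr13:100786457-100786706, minus strand: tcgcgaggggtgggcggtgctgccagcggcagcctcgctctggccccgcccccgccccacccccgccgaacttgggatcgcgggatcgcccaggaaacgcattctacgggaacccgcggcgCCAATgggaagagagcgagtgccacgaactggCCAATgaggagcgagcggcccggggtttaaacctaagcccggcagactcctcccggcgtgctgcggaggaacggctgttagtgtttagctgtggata

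The Mki67 window holds 2 copies of TTTGAA, 116 and 98 bases before the start, below 3 CCAAT boxes. Top2a holds 4 CHR matches and 6 CCAAT boxes within 250 bases before the start, 5 of the boxes inside the printed window in full. Cenpf has 1 CHR match, at the third base after the start, and 2 CCAAT boxes. In Cenpe and Ccnb1 the window has 1 and 2 CCAAT boxes and no match to these CHR letters.

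Most of the other members share these letters. Promoters of 250 bases before to 50 after the start were at hand for 37 members, 39 promoters in all (Aurkb, Ccna2, Foxm1, Incenp, Kif20a, Pbk and Tpx2 are named only). A CHR match was present in 31 of 39 (79.5%), against 19.2% of all 32851 promoters in the RefSeq table. A CCAAT box was present in 28 of 39 (71.8%), against 37.4% of all promoters, and both were present in 26 (66.7%), against 7.52%. The CHR matches lay close to the start: 29 of the 39 promoters had one from 60 bases before the start onward, against 5.9% of all promoters. Letters of an E2F site (any of TTTGGCGC, of TTTCGCGC and of TTTCCCGC, either strand) were in 3 of 39 (7.69%), against 1.84% of all. A CHR match was in 3 of the 5 promoters of called genes and in 28 of the other 34. Only the CHR forms TTTGAA and TTCGAA were searched, so any other form would be missed. A match is a description of the sequence and does not show that a factor binds there.

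**Figure D4:**
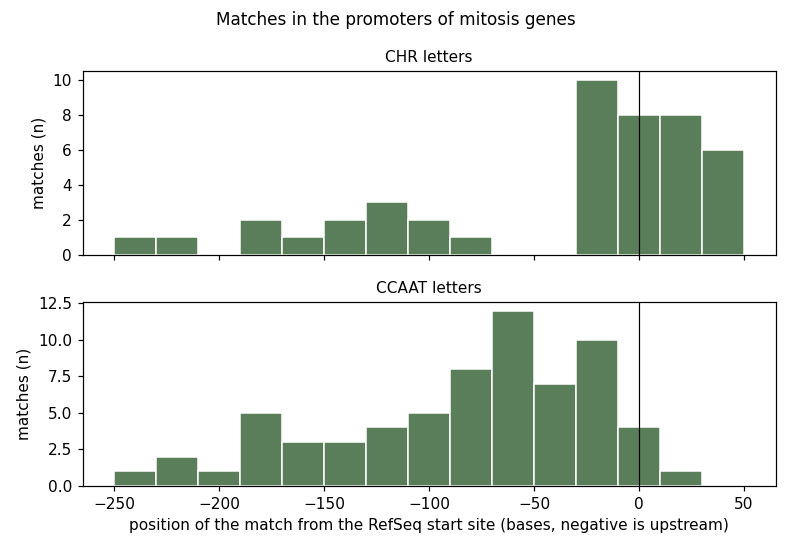
Number of matches to the CHR letters (top) and to CCAAT (bottom) in the 39 promoters of mitosis genes, by position from the RefSeq start site in bins of 20 bases. CHR matches gather from just before to just after the start (median 15 bases before it), and CCAAT boxes lie further upstream (median 67.5 bases before it).

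None of the 8 mitotic kinase and checkpoint genes was called by edgeR, with log2 fold changes from -1.68 to -0.04. At an unadjusted p under 0.05 were 3 of them, against 13.2% of all genes lower. DESeq2 called 2, against 9.47% of all genes lower. Bub1, a checkpoint kinase of the kinetochore, had 2, 1.08 and 2.3 CPM in miR155KO_Nf1KO tumours, against 7.91, 3.09 and 4.95 CPM in Nf1KO tumours. The groups did not overlap, and the log2 fold change was -1.57 (SE 0.48), adjusted p = 0.0856 by edgeR (DESeq2 adjusted p = 0.0187). Mad2l1 encodes Mad2, which holds the anaphase-promoting complex in check until all chromosomes are attached, and was the member with the smallest difference. It had 11.1, 12.8 and 11.7 CPM in miR155KO_Nf1KO tumours, against 12.3, 10.1 and 14.2 CPM in Nf1KO tumours. Here both groups spanned much the same levels, with a log2 fold change of -0.04 (SE 0.20). Mad2l1 has 2 processed pseudogenes at 92.1% and 95.4% identity over part of its transcript, so its count is uncertain. Pseudogene copies were found for 10 members in all, the others being Ccnb1, Cdc20, Cenpe, Ndc80, Pbk, Plk1, Prc1, Racgap1 and Ube2c. They match 1815 of 2199 transcript bases in Plk1, 1512 of 1793 in Cdc20 and 851 of 7910 in the called gene Cenpe. The part of such copies in these counts was not tested. Ttk, the kinase Mps1 that starts the checkpoint, had 8, 20 and 19 reads in miR155KO_Nf1KO tumours, against 29, 89 and 47 in Nf1KO tumours. Its log2 fold change of -1.68 (SE 0.58) was called by DESeq2 (adjusted p = 0.0406) and not by edgeR. Plk1, the polo-like kinase of mitotic entry, varied widely within both groups, at 3.54, 1.76 and 0.871 CPM in miR155KO_Nf1KO tumours, against 0.944, 4.76 and 4.08 CPM in Nf1KO tumours. Aurka, Melk, Pbk and Bub1b overlapped between groups as well, with log2 fold changes of -1.03, -1.20, -0.59 and -0.90.

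The chromosomal passenger complex, which corrects faulty attachments and guides cytokinesis, showed the largest difference outside the calls. Aurkb, its kinase, had 0.386, 1.49 and 2.38 CPM in miR155KO_Nf1KO tumours, against 6.31, 6.18 and 7.03 CPM in Nf1KO tumours. Nf1KO tumours agreed closely while miR155KO_Nf1KO tumours ranged from 6 to 30 reads, and the log2 fold change was -2.21 (SE 0.58), adjusted p = 0.0566 by edgeR (DESeq2 adjusted p = 0.00181). Birc5, which encodes survivin, and Cdca8, which encodes borealin, also had groups that did not overlap. Their log2 fold changes were -1.41 (SE 0.50) and -1.14 (SE 0.41), with adjusted p = 0.125 and 0.126 by edgeR. Incenp, the scaffold that activates the kinase, had 7.53, 4.46 and 6.34 CPM in miR155KO_Nf1KO tumours, against 10.6, 10.6 and 6.9 CPM in Nf1KO tumours. Nf827 lay within the range of miR155KO_Nf1KO there, and the log2 fold change was -0.61 (SE 0.30), adjusted p = 0.248 by edgeR.

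Genes of the anaphase-promoting complex and of separase had lower means without passing the test. Cdc20, an activator of the complex, had 1.48, 1.49 and 0.634 CPM in miR155KO_Nf1KO tumours, against 4.06, 3.77 and 1.81 CPM in Nf1KO tumours. The groups were separate, at a log2 fold change of -1.41 (SE 0.53), adjusted p = 0.139 by edgeR. Ube2c, the ubiquitin-conjugating enzyme of the complex, had 3.48, 2.5 and 5.47 CPM in miR155KO_Nf1KO tumours, against 5.3, 9.4 and 6.76 CPM in Nf1KO tumours. The groups overlapped through MiRNC670, and the log2 fold change was -0.91 (SE 0.39), adjusted p = 0.186 by edgeR. Of the exons of Ube2c, 22.8% overlap the muscle gene Tnnc2 on the other strand. Tnnc2 had 4.44, 12.2 and 49.7 CPM in miR155KO_Nf1KO tumours, against 0.944, 54.3 and 0 CPM in Nf1KO tumours. The highest Ube2c tumour of each group was thus also its highest Tnnc2 tumour. Those tumours, MiRNC670 and Nf809, were also the highest of their group in 22 and 25 of the 44 members. The strand setting of the counting is not given, and the part of Tnnc2 reads in Ube2c was not tested. Espl1, which encodes separase, the protease that cuts cohesin, had 4.18, 3.78 and 1.58 CPM in miR155KO_Nf1KO tumours, against 6.46, 3.65 and 13.4 CPM in Nf1KO tumours. Nf827 was far above the other Nf1KO tumours, and the log2 fold change was -1.29 (SE 0.57), adjusted p = 0.198 by edgeR.

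Among the 8 tested mitotic kinesins edgeR called 0, with log2 fold changes from -1.85 to -0.26. At an unadjusted p under 0.05 were 4, against 13.2% of all genes lower. DESeq2 called 4, against 9.47% of all genes lower. Kif15, a motor that helps to keep spindle poles apart, had 5.47, 2.9 and 3.88 CPM in miR155KO_Nf1KO tumours, against 8.71, 7.6 and 11.6 CPM in Nf1KO tumours. The groups did not overlap, with a log2 fold change of -1.19 (SE 0.33), adjusted p = 0.0633 by edgeR (DESeq2 adjusted p = 0.00923). Kif20b, a motor of cytokinesis, had 8.11, 6.89 and 6.34 CPM in miR155KO_Nf1KO tumours, against 9.73, 14.7 and 11.8 CPM in Nf1KO tumours. This gene likewise kept the groups apart, by a log2 fold change of -0.76 (SE 0.24), adjusted p = 0.0936 by edgeR. Kif20a, a motor of the central spindle needed for cytokinesis, differed least, with 4.51, 4.66 and 3.17 CPM in miR155KO_Nf1KO tumours, against 7.04, 4.27 and 3.55 CPM in Nf1KO tumours. Its ranges overlapped and the log2 fold change was -0.26 (SE 0.37); 29.3% of its exon bases overlap Cdc23 on the other strand. Kif4, which shapes chromosomes and the midzone, had the largest estimate of the motors. It had 5, 25 and 45 reads in miR155KO_Nf1KO tumours, against 66, 136 and 101 in Nf1KO tumours, and the spread among the miR155KO_Nf1KO tumours gave an SE of 0.72 on -1.85. Kif11, the motor that drives spindle poles apart, and Kif22, which pushes chromosome arms, also had separate groups, whereas Kif18a and Kif23 overlapped.

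Spindle-associated and cytokinesis genes ended below the calls too. Ckap2l, a spindle protein, had 1.8, 3.38 and 3.48 CPM in miR155KO_Nf1KO tumours, against 5.15, 9.52 and 8.44 CPM in Nf1KO tumours. The groups did not overlap, with a log2 fold change of -1.42 (SE 0.39), adjusted p = 0.0613 by edgeR (DESeq2 adjusted p = 0.00742). Prc1, which bundles microtubules of the central spindle, had 12.7, 7.29 and 15.8 CPM in miR155KO_Nf1KO tumours, against 15, 14.5 and 13.7 CPM in Nf1KO tumours. It overlapped, with MiRNC670 the highest tumour of all 6, and its log2 fold change was -0.27 (SE 0.29). Tpx2, which activates aurora A on the spindle, and Hmmr had separate groups and log2 fold changes of -1.06 (SE 0.34) and -1.41 (SE 0.46), while Nusap1 overlapped. Anln encodes anillin, the scaffold of the contractile ring that also organises septins in central nervous system myelin in mice. It had 30.3, 35 and 42 CPM in miR155KO_Nf1KO tumours, against 49.7, 60.3 and 60.1 CPM in Nf1KO tumours. The groups did not overlap, with a log2 fold change of -0.66 (SE 0.17), adjusted p = 0.0543 by edgeR (DESeq2 adjusted p = 0.00752). Per kilobase of exon Anln was second to Mki67 among the 44, at 3.95 in miR155KO_Nf1KO and 6.25 in Nf1KO (CPM per kilobase). Racgap1, which with Kif23 forms centralspindlin, had 6.57, 11.8 and 8.79 CPM in miR155KO_Nf1KO tumours, against 7.69, 15.9 and 9.78 CPM in Nf1KO tumours. Its groups overlapped, at a log2 fold change of -0.30 (SE 0.35), and those of Ect2, a cytokinesis protein that it recruits, did not, at -0.67 (SE 0.33).

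Tumours of 1 group were not alike. Nf809 had the highest level of all 6 tumours in 25 of the 44 genes, Nf827 in 12 and Nf803 in 5, and Nf803 was the lowest Nf1KO tumour in 27. Among miR155KO_Nf1KO tumours MiRNC670 was highest within its group in 22 genes and had the overall highest level in 2, Kif2c and Prc1. MiRNC640 was lowest of all 6 in 18 genes, MiRNC149 in 15 and MiRNC670 in 10. The median difference of the 43 tested genes from the Nf1KO mean was -0.86, -1.03 and -0.81 log2 units in MiRNC149, MiRNC640 and MiRNC670, against -0.25, 0.21 and 0.04 in Nf803, Nf809 and Nf827.

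The calls depended on single tumours in edgeR. Leaving out MiRNC640, MiRNC670, Nf803 or Nf827 gave 0 called members, when 142, 0, 0 and 0 of all genes were called. Calls numbered 5 without MiRNC149 and 5 without Nf809, against 4.16% and 6.61% of all genes called lower. Ccnb1, Mki67 and Top2a were called in both fits with 5 calls, joined by Cenpf and Aurkb without MiRNC149 and by Cenpe and Bub1 without Nf809. Foxm1 was called in none of the 6 edgeR fits, with adjusted p = 0.0607 to 0.134. In the 4 fits with 0 calls, 19, 25, 23 and 20 members were lower at an unadjusted p under 0.05. The share of all genes below that threshold is not given for these fits, so whether the counts exceed it is not shown. With all 6 tumours that share was 13.2%. Without MiRNC640, the tumour with the most adipocyte transcripts, the members' median was -0.99 and DESeq2 called 9 lower, against 6.39% of all genes. In the same 6 fits DESeq2 called 9 to 17 members lower, against 5.73% to 9.99% of all genes. The members called always included all 6 that edgeR called with all tumours. Without both MiRNC670 and Nf809, edgeR called 3 (Ccnb1, Mki67 and Top2a) and DESeq2 9. Of all genes, 3.24% (edgeR) and 7.41% (DESeq2) were called lower in these fits. The median log2 fold change of the members stayed between -1.23 and -0.92 when any 1 tumour was left out with edgeR.

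Other genes of the cell cycle were set beside the members. Of 74 tested further genes of mitosis, 8 were called lower and 2 higher, with a median log2 fold change of -0.61. Arhgap11a fell by 1.36 (SE 0.23) on the log2 scale, to 11.4 ± 2.83 CPM in miR155KO_Nf1KO and 29.3 ± 4.3 CPM in Nf1KO (SD, n = 3 each). Casc5, the kinetochore scaffold KNL1, fell by 1.70 (SE 0.29). Among the 74, 61 had a negative and 13 a positive log2 fold change. Of the 2 called higher, Stmn1, which encodes the microtubule regulator stathmin, rose by 1.13 (SE 0.18). The other, Zwint, a kinetochore protein chosen once its value was known, rose by 0.80 (SE 0.16). Both are also expressed by neurons, and the part of neuron reads in their level was not tested. Of 40 tested DNA replication genes 2 were called lower and 0 higher, with a median of -0.44. They were Clspn, the checkpoint adaptor claspin (-1.79 (SE 0.31)), and Rrm2, a subunit of ribonucleotide reductase (-1.44 (SE 0.35)), and the next by p, the replicative helicase gene Mcm5, was not called (-0.98 (SE 0.33)). Of 16 tested G1 cyclins, kinases and inhibitors 3 were called lower, with a median of -0.47: the cyclin D1 gene Ccnd1 (-1.36 (SE 0.20)), the inhibitor gene Cdkn2b (-1.69 (SE 0.31)) and Cdk6 (-1.24 (SE 0.31)). Against the 4.74% of all genes called lower, these shares were 8 of 74, 2 of 40 and 3 of 16.

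Factors that act on CHR, E2F and CCAAT elements were lower in part. Of 21 tested, 4 were called lower and 0 higher, against 4.74% and 5.22% of all genes. The median of -0.08 was near that of all genes. Mybl2, which encodes B-Myb and also stands among the further genes of mitosis, had 0.386, 0.473 and 0.475 CPM in miR155KO_Nf1KO tumours, against 2.1, 2.6 and 1.87 CPM in Nf1KO tumours, a log2 fold change of -2.28 (SE 0.46). Lin9, a core subunit of MuvB, fell by 1.17 (SE 0.22), and E2f8, an atypical repressor of the E2F family, by 2.02 (SE 0.44). Nfya, a subunit of NF-Y chosen once its value was known, fell by 0.64 (SE 0.15).

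**Figure D5:**
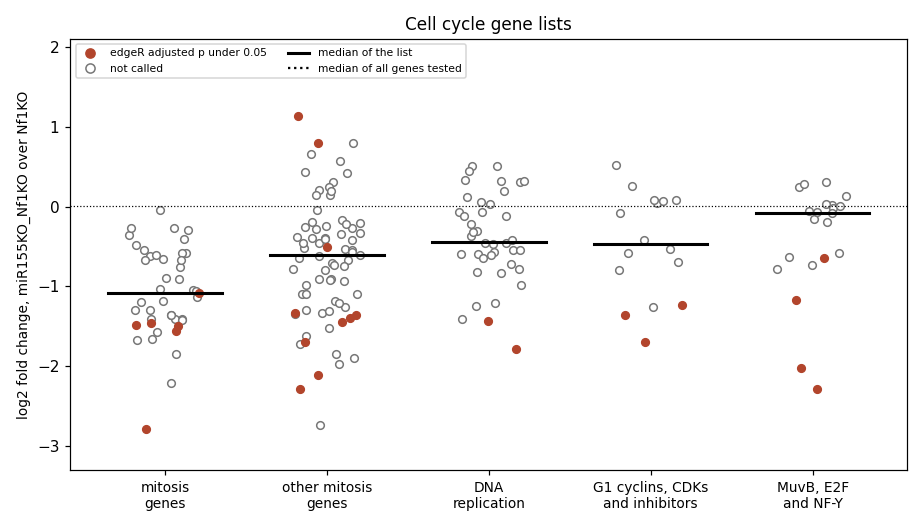
Log2 fold change (miR155KO_Nf1KO over Nf1KO) of each tested gene in 5 cell cycle lists, filled where edgeR called it at an adjusted p under 0.05, with the median of each list as a thick bar and the median of all genes as a dotted line. The mitosis genes all lie below 0 with a median of -1.08, while the other lists reach both sides of 0.

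Markers of several cell types moved with the groups. Over all tested genes, edgeR called 4.74% lower and 5.22% higher, and DESeq2 called 9.47% lower. At an unadjusted p under 0.05, 13.2% of all genes were lower. Of 10 macrophage markers 5 were called lower, and their summed level was 316 to 611 CPM in miR155KO_Nf1KO and 1102 to 2233 CPM in Nf1KO. Fibroblast markers summed to 4359 to 6043 CPM in miR155KO_Nf1KO and 10307 to 10870 CPM in Nf1KO, with 4 of 8 called lower. Neuron markers summed to 5463 to 8643 CPM in miR155KO_Nf1KO and 1355 to 2632 CPM in Nf1KO, with 8 of 10 called higher, and 2 of 10 Schwann cell markers were called higher. T cell markers summed to 6.31 to 9.03 CPM in miR155KO_Nf1KO and 15.3 to 62.3 CPM in Nf1KO, with 0 of 5 tested called by edgeR at the adjusted threshold and 4 at an unadjusted p under 0.05, and 3 called lower by DESeq2. B cell and plasma cell markers summed to 12.7 to 22 CPM in miR155KO_Nf1KO and 32.3 to 59.3 CPM in Nf1KO, with 2 of 5 tested called lower. No marker of these 6 lists was at 0 in all tumours. The edgeR test called 0 of 8 endothelial, 0 of 8 mast cell, 0 of 8 skeletal muscle, 0 of 7 adipocyte and 0 of 2 tested keratinocyte markers, of which 1 endothelial marker was higher at an unadjusted p under 0.05, and DESeq2 called 1 endothelial marker higher and 0 of the other 4 lists. The log2 fold changes of the 7 adipocyte markers were all above 0 (median 2.14), but 0 passed an unadjusted p under 0.05 and the groups overlapped for each. The edgeR test called 1 of 7 tested neutrophil markers lower (2 by DESeq2) and 1 of 3 tested erythroid markers higher (1 by DESeq2). The globin genes Hbb-bt, Hbb-bs, Hba-a1 and Hba-a2 and the keratin genes Krt5 and Krt15 were listed at 0 in every tumour. Which of these cells the mitosis transcripts came from, and the part of a changed cell mix in their lower level, was not tested.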

How the data were processed

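Total RNA of 6 tumours was isolated with the RNeasy Plus Micro kit and sequenced from Nextera XT libraries, per the labels' protocols. The authors deposited 1 table of unscaled whole-number read counts, a column for each tumour and a line for each gene symbol. HISAT2 2.0.5, featureCounts 1.5.2 and mm10 are named in the submitters' processing notes. How strand and multi-matching reads were treated, and which annotation was used, is not known here, so overlapping genes and close copies may share reads. Besides Ube2c and Kif20a, the largest exon overlaps with a gene on the other strand were Kif4 with Pdzd11 (15.1%), Ccna2 with Exosc9 (12.5%) and Prc1 with Rccd1 (11.1%). Pdzd11 averaged 50.1 CPM over all tumours and Kif4 4.26 CPM.

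Counts of all genes were tested with edgeR 4.0.16 in R 4.3.3 (quasi-likelihood, two-sided, group as the only term) after filterByExpr (minimum count 10, minimum total 15) and TMM scaling, with Benjamini-Hochberg adjustment over 15604 genes and a threshold of 0.05. Standard errors are those implied by the F statistic. Alternatives were DESeq2 1.42.0, limma 3.58.1 (voom), other scalings, filters and thresholds, and leaving out tumours. Libraries of 1 group differed by at least 23.2 times Poisson variance, so none was counted as a repeat of the same library. This does not show that the tumours came from separate mice.

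Positions and exon lengths come from GENCODE M21 (GRCm38, the assembly of mm10), close copies from minimap2 2.31 (at least 90% identity over 300 bases), and promoters from RefSeq (GRCm38.p6). The members and lists were chosen with earlier results of these data known. Named with full values are all called members and, per role, the member with the highest CPM, the smallest p and the log2 fold change nearest 0, plus the 3 smallest p of each further cell cycle list, Mir155hg and Nf1. Other members named were chosen after their values were seen.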

Additional observations from a re-analysis of the deposited data

How the results depend on the processing

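The 6 members called lower became 19 with DESeq2, 15 at an adjusted p under 0.1, and 3 without both MiRNC670 and Nf809. Of all genes, 9.47%, 8.45% and 3.24% were called lower in these settings, against 4.74% in the main fit. Leaving out 1 tumour gave 0 to 5 with edgeR, against 0% to 6.61% of all genes called lower. With DESeq2 it gave 9 to 17, against 5.73% to 9.99% of all genes. The DESeq2 counts were 14 without MiRNC149, 17 without MiRNC670, 16 without Nf803 and 12 without Nf809. None of the alternatives run called a member higher. The median log2 fold change of the members was -0.87 with voom quality weights, and -1.23 to -0.92 when 1 tumour was left out with edgeR. Foxm1 lost its edgeR call whichever tumour was left out (adjusted p = 0.0607 to 0.134), and also with voom (0.0509) and with quality weights (0.0686), in a range of 4.91e-05 to 0.154 over all its alternatives. The sign turned for 3 named members, none of them called. Mad2l1 ran from -0.15 to 0.0785 when 1 tumour was left out, with 0.0139 without MiRNC149 (0.00133 with DESeq2) and 0.0785 without Nf827 (0.0755 with DESeq2). Kif20a ran from -0.458 to 0.0496, the highest without Nf803 (0.0646 with DESeq2). Racgap1 ran from -0.537 to 0.0639, the highest without Nf809 (0.0369 with DESeq2), and had 0.0496 without both MiRNC670 and Nf809 (0.0635 with DESeq2). No paired analysis was possible because the groups share no replicate numbers.

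All genes called numbered 1554, against 2962 with DESeq2, 2675 with voom quality weights and 2702 at an adjusted p under 0.1. Leaving out 1 tumour gave 0 to 2242 with edgeR and 1975 to 3349 with DESeq2 (3205 without MiRNC149, 3349 without Nf809). The 8 further mitosis genes called lower became 14 with DESeq2, 2 without both MiRNC670 and Nf809, 4 with DESeq2 in that fit, which was added after seeing the data, and 0 to 4 (edgeR) without 1 tumour. The 2 replication genes became 1 without the filter or with voom, 0 without both tumours, 0 to 1 (edgeR) without 1 tumour, and 4 with DESeq2 without Nf809. The 3 G1 genes became 5 with DESeq2, with quality weights, at the looser threshold, with DESeq2 without both tumours, and with DESeq2 without MiRNC640 or Nf809; edgeR gave 0 to 5 without 1 tumour. The 4 MuvB, E2F and NF-Y genes became 1 without both tumours, 2 with DESeq2 in that fit, and 0 to 3 (edgeR) without 1 tumour. Where a count or a sign changed, the cause was not tested.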
